A study of Mus musculus with 9 samples.

Results

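A set of 10 genes of insulin and insulin-like growth factor (IGF) signalling was followed here: the ligand gene Igf1, the receptor genes Igf1r and Insr, the adaptor genes Irs1 and Irs2, and the binding protein genes Igfbp3, Igfbp4, Igfbp5, Igfbp6 and Igfbp7. They were chosen by symbol, and each matched a single Ensembl identifier among the 55487 in the count table. RNA came from isolated mouse cardiomyocytes, the contractile cells of the heart, in 3 groups of 3 libraries. The Firre group (AAV9-Firre) received an adeno-associated virus of serotype 9 that overexpresses the long noncoding RNA Firre, the negative control (AAV9-VC) received the control vector, and the blank control (NC) is labelled only as a blank. Strain, age and sex of the mice, the promoter and dose of the vectors and the time after transfer are not known here. The labels call the samples biological replicates without naming separate mice or cell preparations, so each p-value rests on the spread between these libraries alone, which may be technical.

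IGF1 and insulin act through a pair of related receptor tyrosine kinases, IGF1R and INSR. The activated receptors phosphorylate the docking proteins IRS1 and IRS2, which recruit PI3-kinase and thereby switch on Akt, the kinase named in the series title. Most secreted IGF is held by IGF-binding proteins, which carry it, keep it from the receptor or release it when proteases cut them. In the heart this pathway is known for its part in cardiomyocyte growth, survival and glucose uptake. The counts measure transcripts, and protein levels and phosphorylation are not analysed here.

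Each library held 15591542 to 22697016 counts assigned to genes. Mitochondrial genes took 7.07% to 8.07% of them in the Firre libraries and 5.89% to 6.80% in the controls, without overlap, and the part of this difference in the results was not tested. Firre itself was at 62.5 to 69.6 CPM (counts scaled to library size, so that libraries can be compared) in the Firre libraries, 32.5 to 34.4 CPM with the control vector and 30.2 to 37.1 CPM in the blank control, and its Firre minus negative control difference was 0.97 on the log2 scale (SE 0.07, edgeR adjusted p = 4.74e-13). All 14 cardiomyocyte markers looked up were present, and their summed level was 39340 to 42400 CPM in the negative control, against 62100 to 65460 CPM with Firre. Markers of other heart cells were present too, and most were lower with Firre than in the negative control (edgeR adjusted p under 0.05). The fall took in 12 of 12 fibroblast, 12 of 12 endothelial, 10 of 10 epicardial and 11 of 11 tested macrophage markers. Of 12 smooth muscle and pericyte markers 11 fell and 1 rose, and all 14 cardiomyocyte markers rose. Of all genes tested, 27.5% were higher and 28.4% lower in this comparison. In bulk RNA, fewer cells of a type and less RNA per cell cannot be told apart.

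The stretches of DNA before 4 of these genes are shown because the genes form contrasting pairs: Irs1 and Irs2, the alternative docking proteins, changed in opposite directions, and Igfbp3 and Igfbp5 had the largest fall and the largest rise of the 10. Each is the 250 bases before the gene's start in RefSeq (GRCm38.p6), written in the gene's direction, for Irs1 at chr1:82291440-82291689, Irs2 at chr8:11008930-11009179, Igfbp3 at chr11:7213924-7214173 and Igfbp5 at chr1:72874866-72875115, all on the minus strand. Capitals mark matches, on either strand, to any of 4 motifs: the E-box CACGTG, the insulin response core CAAAACA, the forkhead core GTAAACA and the TATA box TATAAA.
Irs1: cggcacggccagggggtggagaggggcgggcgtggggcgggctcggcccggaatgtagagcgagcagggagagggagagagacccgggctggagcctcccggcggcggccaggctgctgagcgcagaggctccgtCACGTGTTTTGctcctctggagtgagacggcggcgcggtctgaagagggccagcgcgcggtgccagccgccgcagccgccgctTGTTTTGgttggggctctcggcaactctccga
Irs2: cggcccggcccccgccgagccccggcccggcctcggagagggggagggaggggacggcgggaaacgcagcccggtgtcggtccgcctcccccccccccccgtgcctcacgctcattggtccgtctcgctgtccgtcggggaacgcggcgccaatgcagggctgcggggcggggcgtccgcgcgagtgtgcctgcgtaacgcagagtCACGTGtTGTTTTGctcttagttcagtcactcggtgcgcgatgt
Igfbp3: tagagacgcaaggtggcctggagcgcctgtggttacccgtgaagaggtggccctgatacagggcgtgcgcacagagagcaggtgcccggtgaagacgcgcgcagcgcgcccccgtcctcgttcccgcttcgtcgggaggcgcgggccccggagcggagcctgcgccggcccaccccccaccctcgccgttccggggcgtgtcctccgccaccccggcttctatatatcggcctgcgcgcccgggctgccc
Igfbp5: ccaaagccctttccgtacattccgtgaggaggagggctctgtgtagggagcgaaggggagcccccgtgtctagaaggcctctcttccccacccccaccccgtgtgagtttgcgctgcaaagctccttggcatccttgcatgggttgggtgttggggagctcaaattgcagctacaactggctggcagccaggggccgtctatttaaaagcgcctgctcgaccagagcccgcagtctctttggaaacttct

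In the Irs1 stretch an E-box and a reverse-strand insulin response core overlap, and a further core lies 25 bases before the start. In the Irs2 stretch the E-box and the core are separated by a single base, and the core ends 30 bases before the RefSeq start. The gene coordinates given below are from GENCODE, whose starts can differ. For Irs2 GENCODE places the start at 11008458, further downstream than the end of the stretch at 11008930. The Igfbp5 stretch ends at 72874866, inside the GENCODE gene, which starts at 72874884. Over 32851 such stretches of mouse genes, 6.02% held the E-box, 5.56% the insulin response core, 3.17% the forkhead core and 12.4% the TATA box. An E-box within 10 bases of an insulin response core was found in 14 stretches, 0.0426% of them, and those of Irs1 and Irs2 were among the 14. This pair of motifs was chosen with both stretches in view. Of the 9 members with an entry (Insr had none), no stretch held the letters GTAAACA of the forkhead core. The letters TATAAA were found in 2, those of Igfbp4 and Igfbp6. In Igfbp4 they lay on the gene's strand, 22 bases before the start, and in Igfbp6 on the reverse strand, 142 bases before it. Only exact letters were searched, so variants of a motif were not counted. A match describes letters and does not show that a factor binds there.

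With Firre against the negative control, all 10 genes passed the test, 3 higher (Igfbp5, Insr and Irs1) and 7 lower (Igf1, Igf1r, Irs2, Igfbp3, Igfbp4, Igfbp6 and Igfbp7). Calls came from edgeR (quasi-likelihood F test), with Benjamini-Hochberg adjustment over all 15633 genes tested. In the same comparison 56.0% of all genes tested passed, 27.5% higher and 28.4% lower, so passing the test is common in these libraries. The Firre and negative control libraries did not overlap for any of the 10, against 62.4% of all genes tested. The members' median absolute log2 fold change was 1.03, where that of all genes tested was 0.32. Their signed median was -0.55, and that of all genes tested lay at 0.0002. The 10 were chosen with earlier results of these data known, so these medians describe the 10 genes alone.

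**Figure D1:**
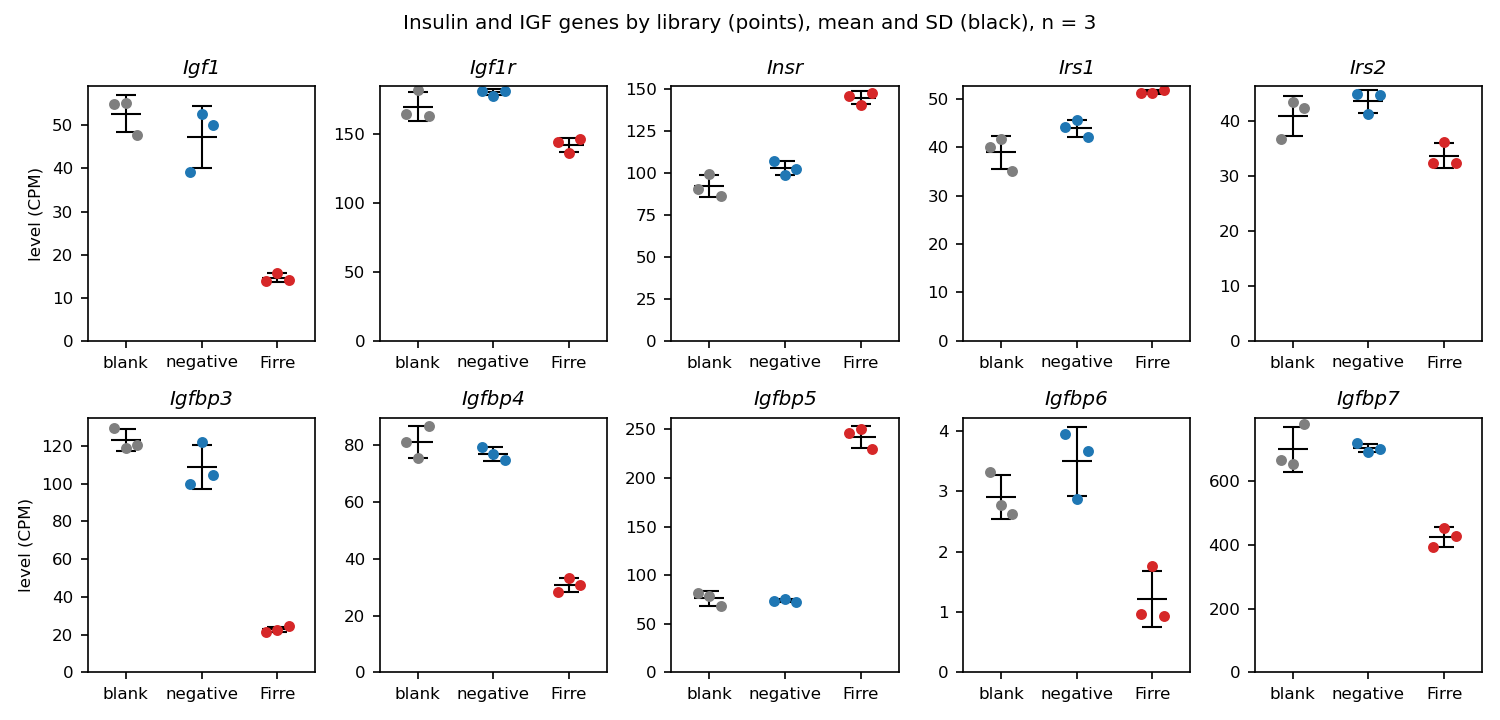
Level of each of the 10 genes in CPM (y axis, starting at 0, scaled for each gene) in the blank control, the negative control and the Firre group; points are libraries and black marks the mean and SD of 3. Igfbp5 rises from 72.4 to 75.5 CPM in the negative control to 230 to 250 CPM with Firre, while Igf1, Igfbp3 and Igfbp4 drop in all 3 Firre libraries.

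The ligand gene Igf1 was lower with Firre. Igf1, on the plus strand of chromosome 10 (87858265 to 87937042, mm10), was at 55.0, 55.3 and 47.9 CPM in the blank control, at 39.2, 52.6 and 50.2 CPM in the negative control, against 13.9, 15.8 and 14.1 CPM with Firre. Every Firre library lay below every control library, and the control groups overlapped each other. The log2 fold change against the negative control was -1.69 (SE 0.10, adjusted p = 7.07e-12), a 3.24-fold lower level. Only 4.06% of genes tested had an absolute change at least as large. Macrophages and fibroblasts are known sources of Igf1 in the heart, and their markers moved in the same libraries. The 12 macrophage markers summed to 107 to 123 CPM in the blank control and 82.6 to 90.1 CPM in the negative control, without overlap. With Firre their sum was 13.2 to 15.3 CPM, and C1qa had no count. The 12 fibroblast markers summed to 9992 to 10430 CPM in the blank control and 9997 to 10190 CPM in the negative control. With Firre they summed to 4609 to 5150 CPM, with none at 0. The part of these cells in the Igf1 value was not tested.

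The receptor genes moved in opposite directions. Insr encodes the insulin receptor and lies on the minus strand of chromosome 8 (3122061 to 3279617). Its level was 90.8, 99.4 and 86.6 CPM in the blank control, 108, 99.0 and 102 CPM in the negative control, against 146, 141 and 148 CPM with Firre. All Firre libraries were above all controls, and Insr rose by 0.49 on the log2 scale against the negative control (SE 0.05, adjusted p = 4.57e-09). Igf1r, the IGF1 receptor gene on the plus strand of chromosome 7 (67952827 to 68233668), stood at 165, 182 and 163 CPM in the blank control, 182, 178 and 182 CPM in the negative control, against 144, 137 and 146 CPM with Firre. The Firre libraries were the 3 lowest, and the gene fell by 0.34 (SE 0.05, adjusted p = 1.11e-06). Changes at least this large were seen in 34.8% of all genes for Insr and 48.1% for Igf1r, so both are of a size common in this comparison.

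Set against each other within a library and per kilobase of exon, Insr was below Igf1r in all 6 control libraries and above it in all 3 Firre libraries. The ratio of Insr to Igf1r was 0.674, 0.666 and 0.648 in the blank control, 0.723, 0.681 and 0.688 in the negative control and 1.24, 1.26 and 1.24 with Firre. The 3 groups did not overlap, although the gap between the controls was small, a log2 difference of 0.07. A ratio within a library does not depend on how libraries are scaled. The mean log2 ratio differed by 0.84 between Firre and negative control, with an exact two-sided permutation p = 0.1, the smallest that 3 against 3 libraries allow (0.129 adjusted over 9 ratio tests). The negative minus blank control difference of 0.07 had the same exact permutation p, so the p does not tell these differences apart. Since Insr rose and Igf1r fell without overlap, the separation of the Firre ratios from the controls follows from those changes.

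Of the adaptor genes, Irs1 was higher and Irs2 lower with Firre. Irs1, on the minus strand of chromosome 1 (82233101 to 82291416), measured 40.1, 41.6 and 35.2 CPM in the blank control, 44.2, 45.6 and 42.1 CPM in the negative control, against 51.1, 51.2 and 51.8 CPM with Firre. The 3 groups did not overlap, the blank control being lowest. Irs1 rose by 0.22 with Firre against the negative control (SE 0.07, adjusted p = 0.00423), while the negative minus blank value was 0.17 (SE 0.07) and, at an adjusted p of 0.457, missed the threshold. The Firre change of Irs1 is the smallest of the 10, and 62.5% of genes tested changed by as much or more.

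Irs2, on the minus strand of chromosome 8 (10984681 to 11008458), was at 36.7, 43.6 and 42.3 CPM in the blank control, 44.9, 41.2 and 44.7 CPM in the negative control, against 32.4, 36.3 and 32.5 CPM with Firre. All Firre libraries were below all controls, the highest of them only just below the lowest blank library, and Irs2 fell by 0.37 against the negative control (SE 0.07, adjusted p = 6.45e-05). Per kilobase, the ratio of Irs1 to Irs2 was 0.575 to 0.754 in the blank control, 0.651 to 0.765 in the negative control and 0.975 to 1.10 with Firre. The Firre ratios did not overlap those of either control group (exact two-sided permutation p = 0.1, the smallest possible, 0.129 adjusted over 9 ratio tests). This separation follows from Irs1 rising and Irs2 falling without overlap, so its p adds nothing to those changes. Exons of Irs1 and Irs2 overlap opposite-strand genes, Gm9747 and 9530052E02Rik, which held 1 and 43 counts over all libraries against 7892 and 6905 for the adaptors.

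**Figure D2:**
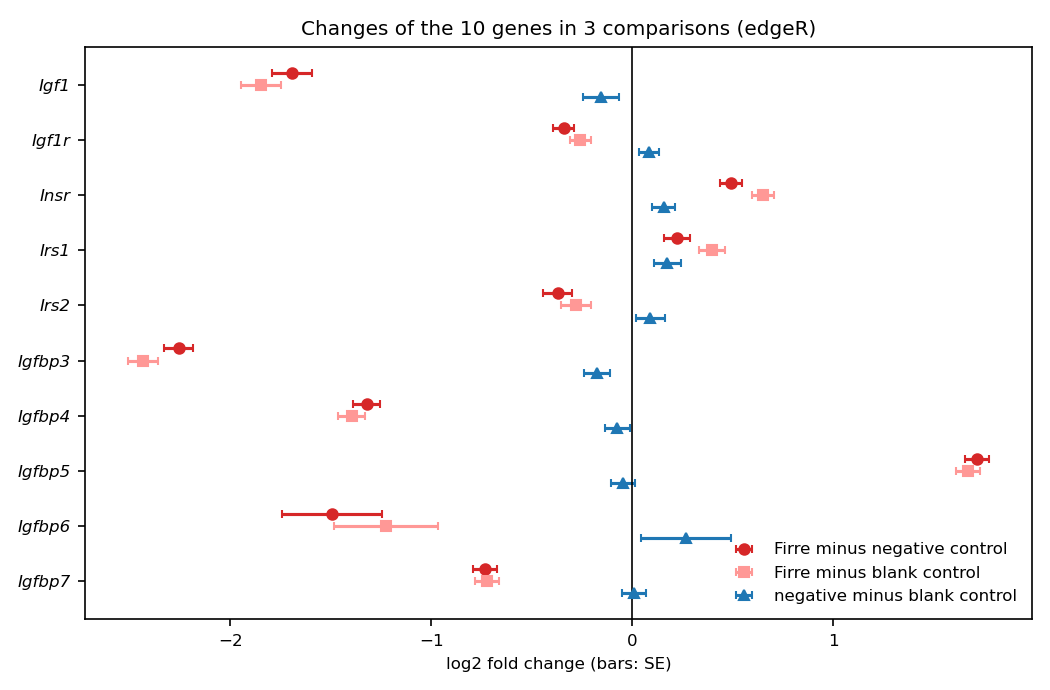
Log2 fold change of the 10 genes (x axis, bars give the SE) for Firre minus negative control, Firre minus blank control and negative minus blank control. Igfbp5, Insr and Irs1 lie right of 0 and the other 7 left of 0 in both Firre comparisons, whereas the vector comparison stays between -0.18 and 0.27.

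Among the binding proteins, 4 of 5 fell and Igfbp5 rose. Igfbp5, whose product binds matrix as well as IGFs, lies on the minus strand of chromosome 1 (72857932 to 72874884). It was at 82.0, 78.5 and 67.8 CPM in the blank control, 73.0, 75.5 and 72.4 CPM in the negative control, against 246, 250 and 230 CPM with Firre. Every Firre library was far above every control, and the control groups overlapped. Igfbp5 rose by 1.72 against the negative control (SE 0.06, adjusted p = 1.47e-20), 3.29-fold, a size reached by 3.91% of genes tested.

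Igfbp3, on the minus strand of chromosome 11 (7206086 to 7213923), encodes the main IGF carrier of the blood. It measured 130, 119 and 121 CPM in the blank control, 99.8, 122 and 104 CPM in the negative control, against 21.4, 22.4 and 24.5 CPM with Firre. The Firre libraries were far below all 6 controls, and the control groups overlapped. The log2 fold change was -2.26 (SE 0.07, adjusted p = 3.76e-20), a 4.78-fold lower level and a size reached by 2.13% of genes tested.

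Igfbp4, on the plus strand of chromosome 11 (99041244 to 99054392), encodes a binding protein that the protease PAPP-A cuts. Its levels were 80.9, 75.5 and 86.8 CPM in the blank control, 79.4, 76.8 and 74.6 CPM in the negative control, against 28.3, 33.1 and 30.9 CPM with Firre. The groups of controls overlapped, and Firre lay below both. Igfbp4 fell by 1.32 (SE 0.07, adjusted p = 8.71e-17) against the negative control. Igfbp7 encodes a secreted protein that binds IGFs weakly and is known from vessels and matrix, and its gene is on the minus strand of chromosome 5 (77349240 to 77408041). Its levels were 667, 653 and 781 CPM in the blank control, 719, 691 and 703 CPM in the negative control, against 392, 454 and 427 CPM with Firre. It fell by 0.73 (SE 0.06, adjusted p = 1.78e-09), again with no Firre library reaching a control library. Its exons share 85 bases with the opposite-strand gene Polr2b, and no source here says whether the counting used strand.

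Igfbp6, on the plus strand of chromosome 15 (102144362 to 102149511), encodes a binding protein that prefers IGF2. It was the least abundant member and rested on 18 to 77 counts per library. Its level was 3.32, 2.78 and 2.63 CPM in the blank control, 3.95, 2.87 and 3.67 CPM in the negative control, against 0.961, 1.76 and 0.939 CPM with Firre. All Firre libraries were below all controls. Igfbp6 fell by 1.49 against the negative control, with the widest error of the 10 (SE 0.25, adjusted p = 6.72e-06). Markers of vessel and epicardial cells, none at 0, are set beside the 4 binding protein genes that fell. For blank control, negative control and Firre in turn, endothelial markers summed to 1033 to 1089, 991 to 1002 and 401 to 411 CPM. In the same order, smooth muscle and pericyte markers summed to 3370 to 3698, 3165 to 3562 and 1684 to 1850 CPM. Epicardial markers summed to 374.2 to 418.5, 419.3 to 445.1 and 115 to 121 CPM. Cardiomyocyte markers, by contrast, rose together with Igfbp5, Insr and Irs1. The part of any cell type in these values was not tested.

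The order of the 10 genes by level per kilobase of exon (RPKM, CPM divided by exon length in kilobases) changed with Firre. Igfbp7 led in every group, at 579 ± 57.8 RPKM in the blank control, 583 ± 11.5 RPKM with the control vector and 351 ± 25.5 RPKM with Firre (SD, n = 3). In the negative control it was followed by Igfbp3 (34.7 RPKM), Igfbp4 (17.4), Igfbp5 (12.3), Igf1r (10.7), Insr (7.49), Irs2 (6.90), Irs1 (4.81), Igf1 (4.78) and Igfbp6 (3.15), and only Irs1 and Igf1 overlapped as neighbours. With Firre the order was Igfbp7, Igfbp5 (40.3 RPKM), Insr (10.5), Igf1r (8.47), Igfbp3 (7.27), Igfbp4 (6.97), Irs1 (5.62), Irs2 (5.33), Igf1 (1.48) and Igfbp6 (1.10). Here Igfbp3 and Igfbp4, Irs1 and Irs2, and Igf1 and Igfbp6 overlapped in their library values. The blank control had the order of the negative control except that Igf1 stood above Irs1, and only Insr and Irs2 overlapped there. With the length of the longest transcript in place of all exons, Igf1r (14.9 RPKM) passed Igfbp5 (12.7) and Igf1 (7.48) passed Irs2 (6.46) in the blank control. With the control vector Igf1r (15.8 RPKM) again passed Igfbp5 (12.3), and Igf1 (6.71) passed Irs1 (4.81).

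**Figure D3:**
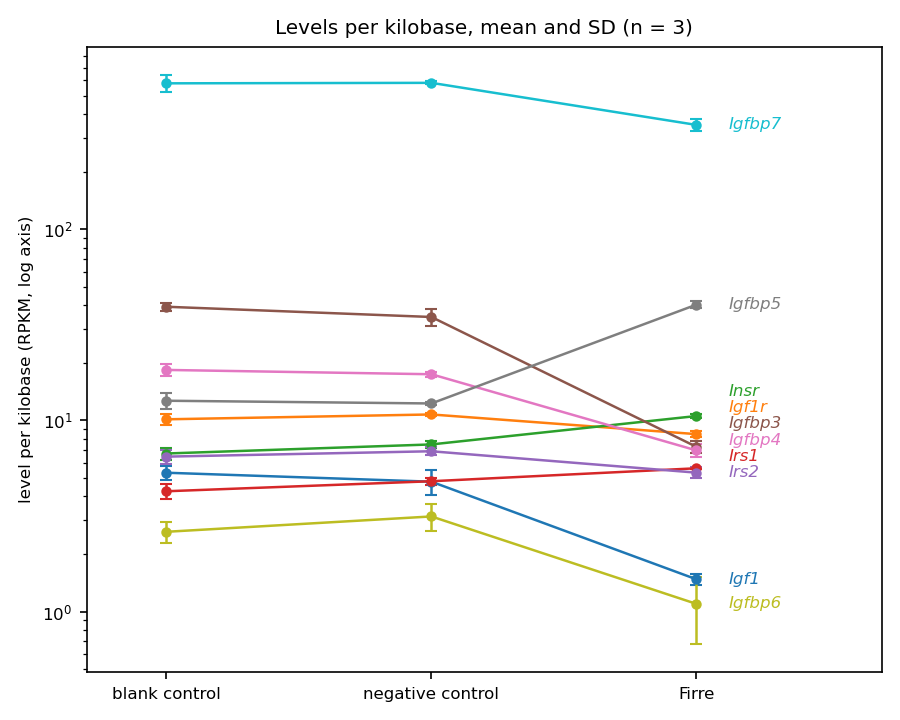
Level per kilobase (RPKM, log axis) of the 10 genes in the 3 groups, as mean and SD of 3 libraries. Igfbp5 is second to Igfbp7 with Firre at 40.3 RPKM, and Insr crosses Igf1r.

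The binding protein transcripts also changed in composition. Summed over Igfbp2 to Igfbp7, with Igfbp2 taken from the other genes of the pathway, they reached 643 to 748 RPKM in the blank control, 673 to 692 RPKM in the negative control and 392 to 446 RPKM with Firre. Igfbp7 made up 84.7% ± 1.40, 85.6% ± 0.569 and 83.6% ± 0.654 of that sum (SD, n = 3). Leaving Igfbp7 aside, Igfbp3 made up 37.8% ± 0.773 in the blank and 35.4% ± 2.90 in the negative control, and 10.6% ± 0.736 with Firre. Igfbp2 made up 29.8% ± 1.08, 31.1% ± 1.70 and 19.2% ± 1.81, and in negative control replicate 1 it was slightly above Igfbp3. Igfbp5 went the other way, from 12.2% ± 1.0 and 12.5% ± 0.157 to 58.6% ± 2.61. The ratio of Igfbp5 to Igfbp3 was 0.293 to 0.345 in the blank control, 0.323 to 0.381 in the negative control and 4.90 to 6.01 with Firre. The mean log2 ratio was 3.97 higher than in the negative control (exact two-sided permutation p = 0.1, the smallest possible, 0.129 adjusted over 9 ratio tests). These genes had the largest rise and the largest fall of the members, without overlap with the controls. Their ratio was therefore bound to separate the groups, and its p adds nothing to the changes given above.

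**Figure D4:**
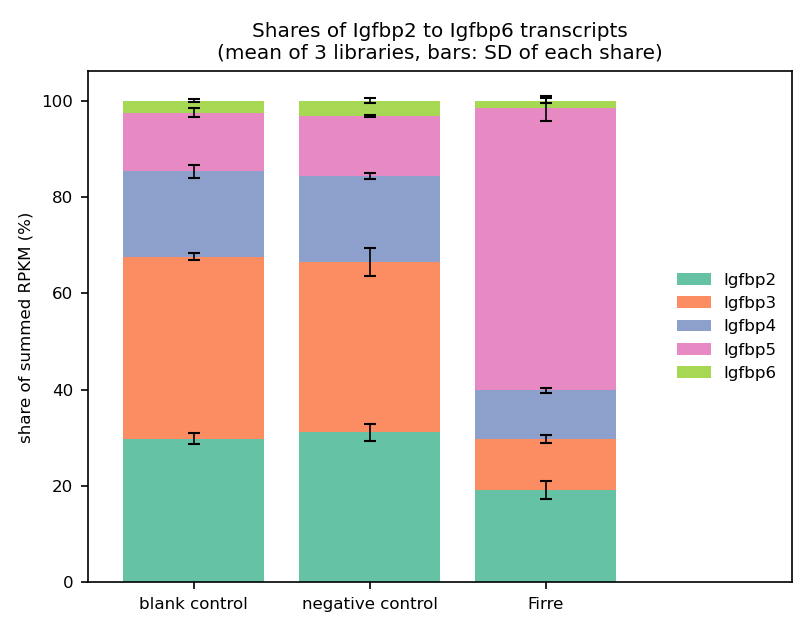
Share of each gene in the summed RPKM of Igfbp2 to Igfbp6 (y axis, percent) in the 3 groups; segments are means of 3 libraries and bars the SD of each share. Igfbp5 holds 58.6% with Firre and 12.5% in the negative control, and Igfbp3 holds 10.6% and 35.4%.

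The vector alone was compared with the blank control, sharing its negative control libraries with the comparison above. None of the 10 genes passed edgeR's test, and 0.0576% of all genes did. DESeq2 called none of the 6 members to which it gave an adjusted p, and gave none to Igf1, Irs1, Irs2 and Igfbp6. At an unadjusted edgeR p under 0.05 there were 3 members, Insr (log2 fold change 0.16), Igfbp3 (-0.18) and Irs1 (0.17), whose adjusted p values by edgeR were 0.417, 0.433 and 0.457. Groups did not overlap for 1 member, Irs1, and for 13.1% of all genes tested. The largest value was that of Igfbp6 at 0.27 (SE 0.22).

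Firre against the blank control shares libraries with both other comparisons and is set beside them for its values only. The same 3 genes were higher and the same 7 lower, where 56.3% of all genes passed, 27.3% higher and 28.9% lower. None of the 10 overlapped between the groups, against 60.5% of all genes tested not overlapping. The log2 fold changes were 1.67 for Igfbp5, 0.65 for Insr and 0.40 for Irs1. Those of the genes that fell were -2.43 for Igfbp3, -1.85 for Igf1, -1.40 for Igfbp4, -1.22 for Igfbp6, -0.72 for Igfbp7, -0.28 for Irs2 and -0.26 for Igf1r. The adjusted p was highest for Irs2, at 0.00168.

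Other genes of the pathway, a list of 44, went both ways with Firre. Of 37 tested, 16 rose, 16 fell and 5 did not pass, where 27.5% of all genes tested were higher and 28.4% lower. The median log2 fold change of the 37 was -0.04. The other 7 were not tested for low counts. Among them the insulin genes Ins1 and Ins2 and the adaptor gene Irs4 had no count in any library, which allows up to 0.0171 CPM, the value of 3 counts over all 9 libraries. Between the negative and the blank control none of the 37 passed by edgeR, with 4 at an unadjusted edgeR p under 0.05, and none of the 18 to which DESeq2 gave an adjusted p.

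Igf2, the other IGF ligand gene, was at 4.08 ± 0.563 CPM in the negative control, against 8.31 ± 0.362 CPM with Firre, and rose by 1.02 (SE 0.15, adjusted p = 9.22e-07; SD, n = 3). Igf1 fell in the same libraries. Igfbp2 fell by 1.21 (SE 0.07), from 56.3 ± 2.66 to 24.4 ± 2.33 CPM, as 4 of the 5 binding proteins above did. The stanniocalcin genes, whose products block PAPP-A, divided: Stc1 rose by 0.64 and Stc2 fell by 0.58.

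Between receptor and Akt, 4 of 10 other adaptor genes tested rose and 4 fell, beside the 27.5% and 28.4% of all genes. Grb14, whose product inhibits the insulin receptor, rose by 0.84 (SE 0.06), from 39.0 ± 0.646 to 70.0 ± 2.84 CPM. The docking protein gene Gab1 rose by 0.62, and Shc1, which links receptors to Ras, fell by 0.44. Of 7 genes listed as brakes on the receptors or on the signal below them, 4 fell, 1 did not pass and 2 rose, Trib3 and Socs1. Trib3, a pseudokinase gene whose product binds Akt, rose by 0.74 (SE 0.06), and Socs1, a suppressor of cytokine signalling, by 1.11 (SE 0.25) from a low level of 1.76 CPM. Of 3 genes of insulin-driven glucose uptake, Tbc1d4, whose product Akt phosphorylates, rose by 1.05 (SE 0.06), from 64.5 ± 3.60 to 133 ± 3.34 CPM. Slc2a4, the gene of the glucose transporter GLUT4, rose by 0.63 (SE 0.06), and Lnpep had 0.27 (adjusted p = 0.0980). Of 3 genes listed as growth hormone input, 2 rose and 1 fell. Stat5a, which growth hormone signals through, rose by 0.47, while the growth hormone receptor gene Ghr fell by 0.26. For all of these genes named, the adjusted p was at most 0.00261, the value of Stc1, apart from Lnpep. Cardiomyocyte markers were higher in the same libraries, and their part in these values was not tested.

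**Figure D5:**
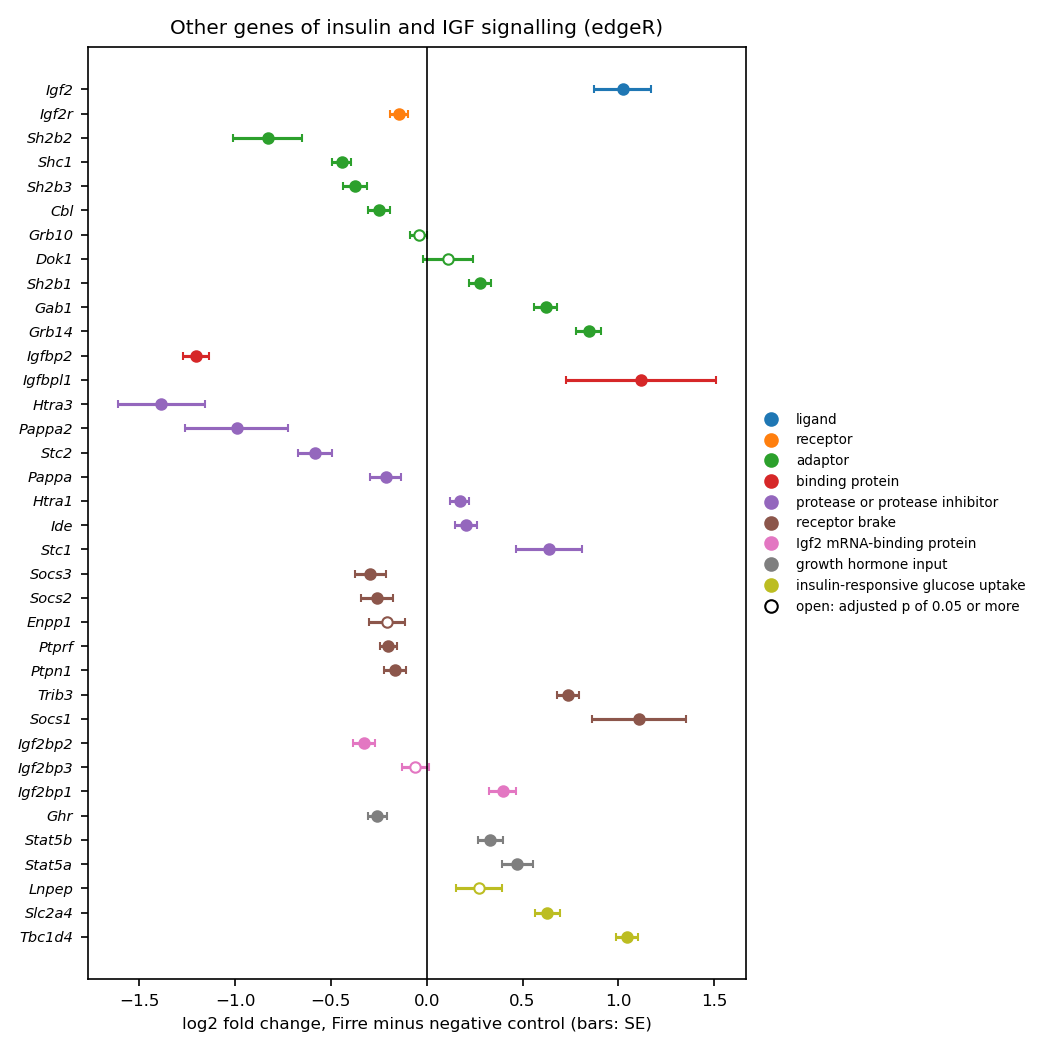
Log2 fold change, Firre minus negative control (x axis, bars give the SE), of the tested genes of insulin and IGF signalling outside the 10, except 1 that is not shown; colours give the role and open points did not pass the test. Genes that rose and genes that fell are both found in most roles.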

How the data were processed

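RNA was depleted of ribosomal RNA and sequenced as directional paired-end libraries, per the labels' protocols, although the labels also give the molecule as polyA RNA. The authors deposited raw counts per Ensembl gene, not normalized. The submitters' processing notes name FastQC, Trimmomatic, STAR, featureCounts and mm10, without versions or settings. The closing 5 lines of unassigned reads (16.3% to 17.4% of counts per library) were left out. Symbols, coordinates and exon lengths came from GENCODE M21 on mm10 (55227 of 55487 identifiers matched), and promoter sequences from RefSeq.

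Groups came from the sample titles. All 9 libraries entered a single edgeR quasi-likelihood fit (edgeR 4.0.16, R 4.3.3, TMM, robust, no covariates, filterByExpr with a minimum count of 10 and a minimum total of 15), 15633 genes were tested, and a Benjamini-Hochberg adjusted p under 0.05 was called. CPM used TMM-scaled gene totals, and each SE was the size of the log2 fold change divided by the root of its F statistic. Replicates differed by more than sampling noise (chi-square per degree of freedom 3.27 to 7.40). DESeq2 1.42.0 and other settings were alternatives. The scripts were tested on simulated data. Each SE and SD includes the spread between libraries, while the limit given for genes without a count covers counting error only. The members, the gene lists and the motifs were chosen with earlier results of these data known. The text names all 10 members, Firre, and the 12 called pathway genes with the largest change and 5 CPM or more on average where higher, except 1 that is not reported here, besides Lnpep, Socs1 and genes named for a count of 0 or an overlap, which were added after their values were seen.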

Additional observations from a re-analysis of the deposited data

How the results depend on the processing

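For Firre against each control, the 10 members kept their direction and stayed past the threshold under all 12 alternatives of each comparison: RLE or total-count scaling, no filter, DESeq2, a fit of the 2 groups alone, the replicate block and each replicate of the groups compared left out. Irs1 came closest, with adjusted p values of 0.0013 to 0.0321 against the negative control. Between the control groups no member passed under any of them, except that DESeq2 gave no adjusted p for 4 (Igf1, Irs1, Irs2 and Igfbp6). With library totals alone the median gene moved to -0.05 against the negative control, Irs1 was at 0.17, and 3685 genes were called higher and 5050 lower, where TMM scaling gave 4306 and 4441. The count of all genes called between negative and blank control, 9, was 98 without the filter, 22 with DESeq2 and 0 to 55 when a replicate was left out (0 without blank replicate 1, 55 without blank replicate 2, 3, 4 and 15 without negative control replicates 1, 2 and 3). Same-numbered libraries did not deviate together (correlations of -0.0399 to 0.0283). This does not exclude a shared mouse or preparation with a small effect. With the replicate block 8592 genes were called for Firre against the negative control, 10 members among them. Depth limits Igfbp6 most. The labels name no batch, so none could be examined.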

Other observations

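Genes with the profile most like each member were looked up among 10635 protein-coding genes (10636 for Igfbp6) with a mean of at least 5 CPM, by Pearson's r of log2 CPM over the 9 libraries. The libraries share the large difference between Firre and controls, and high values were common: 1180 genes reached 0.95 with Igf1, 1346 with Igfbp3, 1384 with Igfbp4 and 1143 with Igfbp5, but only 35 with Irs2 and 47 with Irs1. The nearest were Lum, a fibroblast marker, for Igf1 (0.996), Cd34 for Igfbp3 (0.998), Serpinf1 for Igfbp4 (0.999), Adamtsl5 for Igfbp7 (0.997) and Ldb1 for Igfbp6 (0.991). Igfbp5 was closest to Dhx58 (0.999), which encodes an RNA sensor and went from 3.19 to 15.6 CPM between negative control and Firre. Insr was closest to Sgcd (0.993), a sarcoglycan gene. Igf1r was closest to Pi4k2b (0.990), Irs1 to Kif5b (0.987) and Irs2 to Evl (0.982).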
